A study of Mus musculus with 6 samples.

Results

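The GATA factors are a family of 6 zinc finger transcription factors, Gata1 to Gata6, and their RNA was followed here in GFP-positive cells that were sorted out of mouse embryo heads (embryonic day 9.5). The members were taken by gene symbol from the array's probe-to-gene table, which gave 8 probes of 6 genes among 45281 probes of 19057 named genes. Gata1 and Gata6 had 2 probes each, numbered 1 and 2 below, and the other members had 1 each. The study measured 2 sorts of GFP-positive cells with 3 independently isolated replicates of each, on Illumina mouse whole-genome arrays. Cranial mesoderm came from embryos of a Mesp1-Cre x Z/EG cross, and cranial neural crest from embryos of a Wnt1-Cre x Z/EG cross. Every embryo thus carried a Cre transgene and the Z/EG reporter, which switches on GFP in cells where Cre has acted and in their descendants, and the strain given for both sorts is C57Bl/6 x 129 x ARC/s. Mesp1-Cre marks descendants of early mesoderm, which include blood vessel, blood and heart lineages beside head mesenchyme. Wnt1-Cre acts in the dorsal part of the neural tube, midbrain included, and so labels both that tube and the neural crest that leaves it. Neither sort is therefore a single cell type. How many embryos were pooled for a replicate is not given in the sources used here.

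GATA factors bind DNA at short sites built around the letters GATA and are named for them. Gata1, Gata2 and Gata3 are known for their roles in blood: Gata1 drives red cell and megakaryocyte maturation, Gata2 keeps stem and progenitor cells and also acts in endothelium, and Gata3 directs T cells and acts in sympathetic neurons, the ear and the branchial region. Gata4, Gata5 and Gata6 are known for their roles in heart and endoderm. The factors work with partners, among them the FOG proteins, which bind a GATA zinc finger, and in blood and endothelium a complex of Tal1, Lmo2 and Ldb1.

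The sequences before the starts of Gata2 and Gata1 are given first, because Gata2 had the largest difference of the family while Gata1, its relative in blood, was near the detection limit. The search took 5 starts of 4 of the 6 genes, Gata1, Gata2, Gata3 and Gata5, from RefSeq's GRCm38.p6 table. Gata4 had no entry there. The chromosome of Gata6 was left out of the search, so whether the table holds starts of Gata6 is not shown here. The table gave 2 starts for Gata2, and the array's single Gata2 probe was not assigned to either. Each line shows the 250 bases before a start, 5′ to 3′ on the gene's strand, and the capitals mark the letters CCAAT on either strand. The first Gata2 window is chr6:88193641-88193890 on the plus strand, the second is chr6:88198414-88198663 on the plus strand, and the Gata1 window is chrX:7967911-7968160 on the minus strand.
Gata2 start 1: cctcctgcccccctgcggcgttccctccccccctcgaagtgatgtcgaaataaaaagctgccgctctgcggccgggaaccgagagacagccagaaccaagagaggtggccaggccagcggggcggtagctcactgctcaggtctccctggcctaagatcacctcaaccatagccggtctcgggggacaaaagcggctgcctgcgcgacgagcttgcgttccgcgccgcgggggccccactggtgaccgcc
Gata2 start 2: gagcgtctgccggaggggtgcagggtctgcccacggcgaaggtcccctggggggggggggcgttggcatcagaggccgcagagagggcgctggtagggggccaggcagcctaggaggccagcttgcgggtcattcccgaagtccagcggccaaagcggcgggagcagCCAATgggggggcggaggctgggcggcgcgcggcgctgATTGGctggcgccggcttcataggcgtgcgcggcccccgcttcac
Gata1 start 1: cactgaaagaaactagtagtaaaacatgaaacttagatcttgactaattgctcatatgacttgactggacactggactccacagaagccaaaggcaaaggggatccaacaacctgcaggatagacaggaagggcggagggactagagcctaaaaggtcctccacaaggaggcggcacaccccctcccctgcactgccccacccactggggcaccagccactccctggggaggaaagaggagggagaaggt
The second Gata2 window held 2 CCAAT matches, the nearer 41 bases before the start, and 33.8% of 32851 promoter windows of the same length in the table held at least 1. The GATA site was searched on both strands in the spellings AGATAA and AGATAG, beside those that open with T in place of A, TGATAA and TGATAG. It had 0 matches in each of the 5 windows searched, none of them of Gata4 or Gata6, and 26.5% of all windows held at least 1. The E-box letters CANNTG had 1 match each in the Gata1 and Gata5 windows, against 66.2% of all windows with at least 1. These are matches of letters in 250 bases and no more than that.

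The Gata2 and Gata1 windows differed in base composition. G and C made up 67.2% and 74% of the 2 Gata2 windows, with 22 and 24 CpG, against 54% and 2 CpG in the Gata1 window. Gata3 and Gata5 lay with Gata2, at 70% each and with 19 and 22 CpG. The median over all windows was 52.4% with 6 CpG.

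The 6 arrays shared 1 BeadChip, on which mesoderm occupied the last 3 positions and crest the first 3, so position on the chip and sort cannot be told apart. Between 30.8% and 34.1% of probes were detected on an array, where detected means a detection p under 0.05 against the array's negative controls. Normalised log2 values correlated between arrays of 1 sort at 0.949 to 0.968 in mesoderm and 0.960 to 0.987 in crest, and at 0.836 to 0.908 between the sorts. The neural tube and migratory crest lists were led by genes higher in crest, and the head mesoderm list by genes higher in mesoderm, as detailed with the lists below. Foxd3, Pax3 and Pax7, which mark early crest and dorsal neural tube, were detected on no array.

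Gata2 was the GATA factor with a clear signal in both sorts, and it was much higher in mesoderm. Its deposited signals, in linear intensity units before any correction, were 691, 857 and 635 on the mesoderm arrays of replicates 1, 2 and 3, against 186, 186 and 173 on the crest arrays. The lowest signal detected on those arrays was 110, 156 and 123 in mesoderm and 138, 150 and 124 in crest. Every Gata2 signal therefore stood above its array's limit, and the lowest mesoderm signal was far above the highest crest signal. After background correction and quantile normalisation the Gata2 levels on the log2 scale were 10.17, 9.18 and 9.47 in mesoderm, against 6.30, 5.90 and 6.65 in crest. The groups did not overlap, as was true of 37.2% of the genes tested (17.6% with mesoderm higher), and mesoderm replicate 1 was the highest of the 6 arrays.

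The Gata2 mean was 9.61 ± 0.51 in mesoderm and 6.28 ± 0.37 in crest (log2, SD, n = 3 each). The difference, mesoderm minus crest, was 3.32 ± 0.32 (log2, SE), with a 95% interval of 2.60 to 4.04 and an adjusted p of 0.000172 by limma with Benjamini-Hochberg adjustment over 9214 tested genes. On the linear scale that is about 10-fold. In these sorted populations, fewer cells that express a gene and less of its RNA per cell cannot be told apart. Gata2 ranked 138 of the 9214 genes by how much higher it was in mesoderm, and the median difference of all genes tested was -0.07 (log2).

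Gata6 was the other member called, and it was seen in mesoderm alone. Its probe 2 gave signals of 143, 280.0 and 242 in mesoderm, above each array's lowest detected signal. In crest the signals were 120.3, 125 and 104, below the lowest detected signal of each array. On the log2 scale the levels were 6.65, 7.02 and 7.71 in mesoderm, against 4.75, 4.69 and 4.62 in crest. The crest values were nearly flat, and the mesoderm values spread over about 1 log2 unit with replicate 3 the highest. The mean was 7.12 ± 0.54 in mesoderm and 4.69 ± 0.07 in crest (log2, SD, n = 3 each), a difference of 2.44 ± 0.29 (SE) with a 95% interval of 1.77 to 3.10 and an adjusted p of 0.00059 by limma. Since no crest array detected the probe, the fold is a bound as to the crest level: Gata6 was at least 3.67-fold higher in mesoderm, with each crest array set at its lowest detected level. This bound, like the other folds given below as at least a value, uses the group mean of the sort with the higher level in the main setting. It does not include the error of that mean or the choice of background correction.

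The 2 Gata6 probes disagreed. Probe 1 was detected on no array, with signals of 94.5, 125 and 106 in mesoderm and 111, 120.2 and 111 in crest. Its difference was -0.05 (log2, 95% interval -0.26 to 0.17, adjusted p = 0.89 by limma over all 34885 named probes without a detection filter). The positions of the probes in the transcript were not used here, and the probes' levels were not set against each other.

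Of all genes tested, 10.1% were called higher in mesoderm and 8.25% lower, where called means an adjusted p under 0.05. Gata2 and Gata6 were the only members that passed the detection filter, which asks for detection on at least 3 of the 6 arrays. Gata6 passed through its mesoderm arrays, so that a count of called members among the tested ones carries no information. In the fit of the 13057 probes that passed it, 8.68% were called higher in mesoderm and 7.41% lower, with the Gata2 probe and probe 2 of Gata6 among the higher. In the fit of all 34885 named probes without that filter, 3.98% were called in either direction, and the called GATA probes were those of Gata2 (adjusted p = 0.00727) and probe 2 of Gata6 (adjusted p = 0.012). The arrays of the 2 sorts did not overlap for 3 of the 8 GATA probes, all 3 higher in mesoderm, against 21.7% of all named probes that did not overlap and 10.4% that did not overlap with mesoderm higher.

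**Figure D1:**
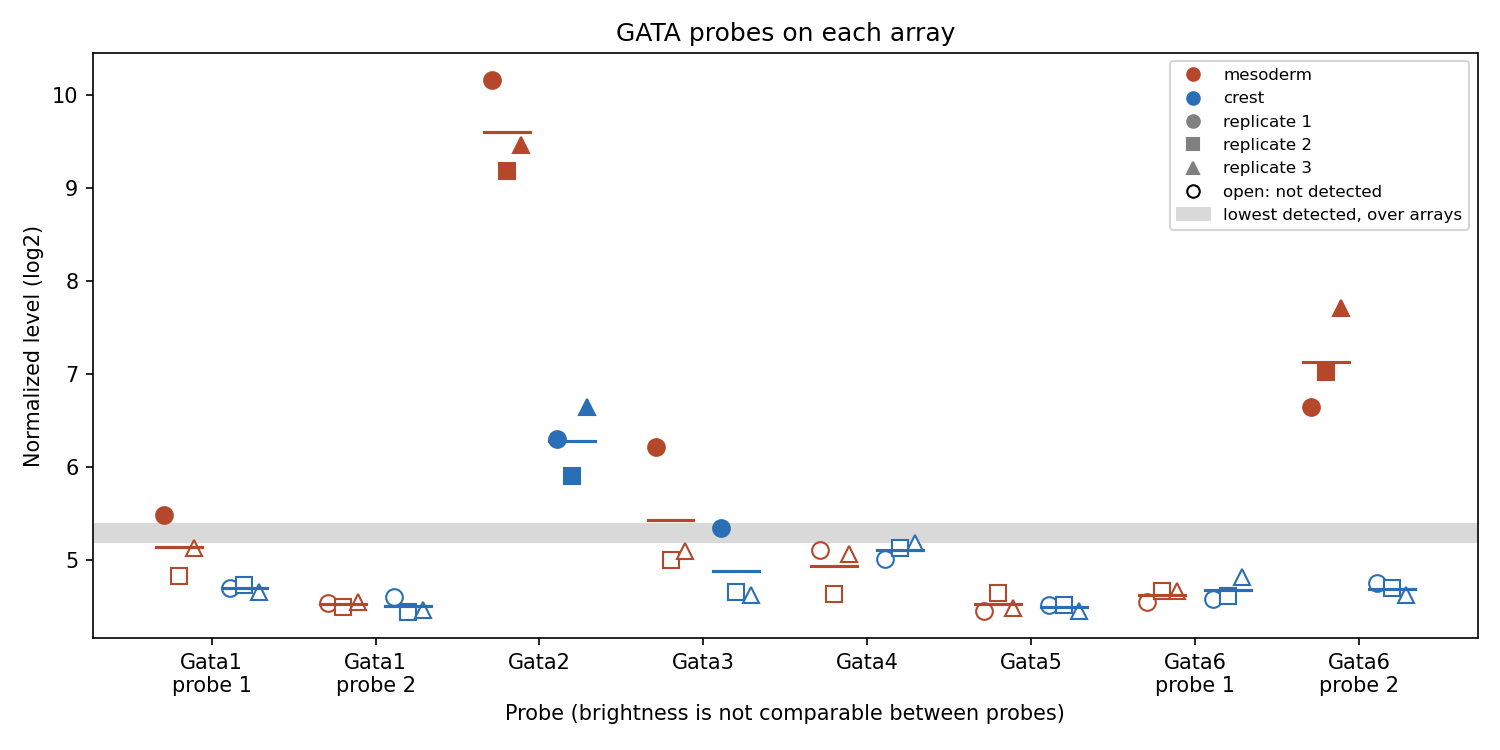
Normalised level of each of the 8 GATA probes (log2, vertical axis) on the 3 mesoderm arrays and the 3 crest arrays. Gata2 lies between 9.18 and 10.17 in mesoderm and between 5.90 and 6.65 in crest, probe 2 of Gata6 stands out in mesoderm alone, and the other probes lie near the lowest detected levels of the arrays, 5.19 to 5.38, apart from Gata3 on mesoderm replicate 1 at 6.21.

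Gata1 was at the edge of detection. Probe 1 gave signals of 113, 135 and 118 in mesoderm and 118, 128 and 106 in crest, and it was detected on mesoderm replicate 1 alone. On the log2 scale its levels were 5.48, 4.82 and 5.13 in mesoderm against 4.70, 4.73 and 4.66 in crest. The groups did not overlap, but the difference of 0.45 (95% interval 0.02 to 0.88) had an adjusted p of 0.299 by limma in the fit of all named probes. Probe 2 was detected on no array, and its difference was 0.02 (95% interval -0.14 to 0.19). The deposited detection p-values of the 2 Gata1 lines were exchanged: each p went with the signal of the other line to within 0.00107. Which of signal and p carries the wrong probe is not known, so the single detection belongs to Gata1 and to neither probe in particular.

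Gata3 was seen on 1 array of each sort. Its signals were 129, 144 and 117 in mesoderm and 142, 123 and 104 in crest, and its log2 levels were 6.21, 5.00 and 5.09 in mesoderm against 5.34, 4.66 and 4.63 in crest. Replicate 1 was the array that detected it in each sort, and the groups overlapped. The difference was 0.56 with a wide interval of -0.43 to 1.54 (log2, adjusted p = 0.619 by limma over all named probes).

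Gata4 and Gata5, the other heart and endoderm members, were detected on no array. Gata4 gave signals of 107, 123 and 116 in mesoderm and 130.1, 147 and 121 in crest, and log2 levels of 5.11, 4.63 and 5.06 in mesoderm against 5.01, 5.12 and 5.19 in crest. Its detection p was 0.0897, 0.373 and 0.13 in mesoderm against 0.109, 0.0662 and 0.0759 in crest, so the crest values lay not far from the threshold of 0.05. Gata4 had the difference furthest below 0 of the 8 probes, -0.17 (95% interval -0.54 to 0.19), and the groups overlapped. Gata5 gave signals of 90.0, 124 and 98.5 in mesoderm and 107, 113 and 94.9 in crest, with a difference of 0.03 (95% interval -0.15 to 0.21). Neither was called (adjusted p = 0.698 for Gata4 and 0.915 for Gata5 by limma). These values are bounds on signal over background, and a transcript below the arrays' limit in either sort would not have been seen.

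**Figure D2:**
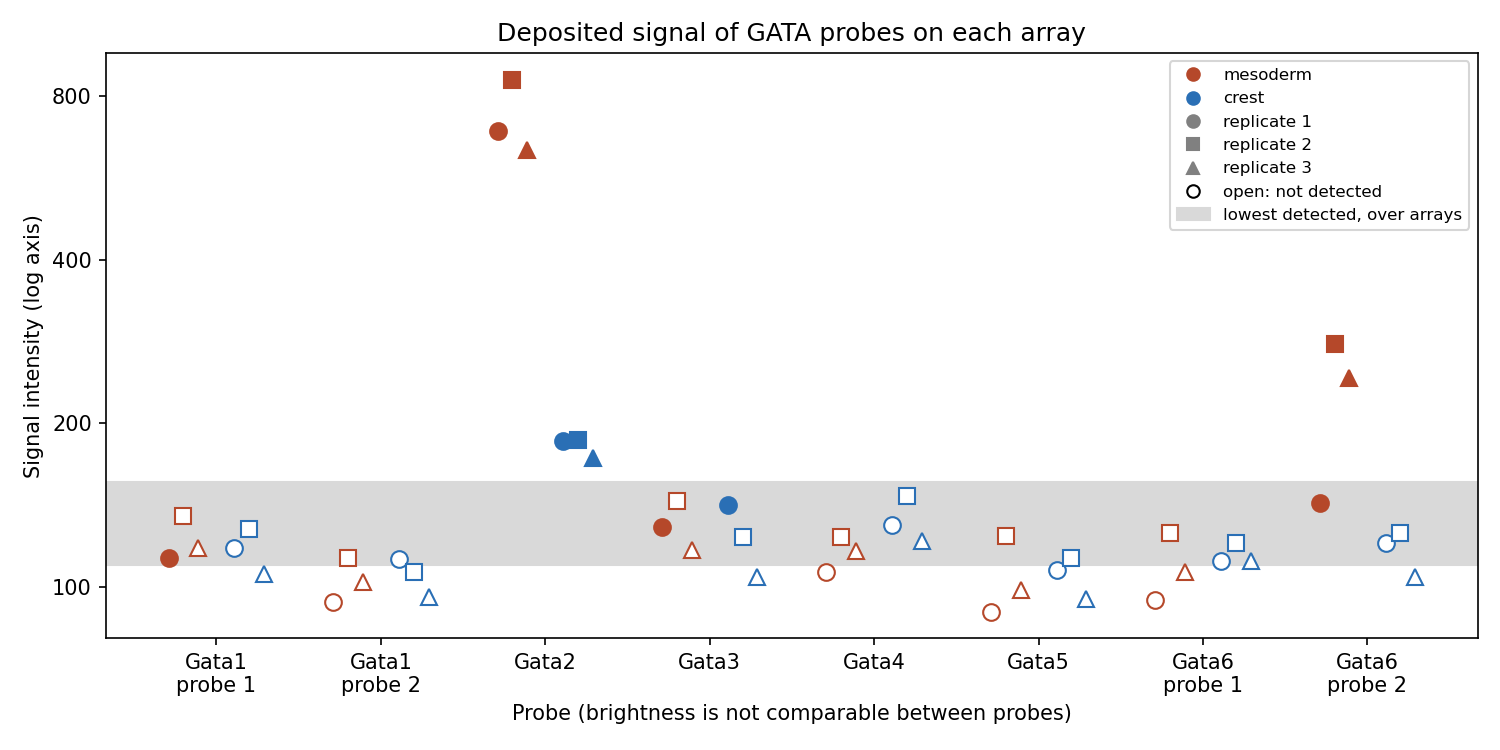
Deposited signal intensity of the 8 GATA probes (linear units, log axis) on each array, before background correction. The grey band spans the lowest detected signals of the arrays, 110 to 156. Gata2 clears the band on all 6 arrays. Probe 2 of Gata6 was detected on the 3 mesoderm arrays, though its signal on mesoderm replicate 1 (143) lies within the band, above that array's own limit of 110.

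**Figure D3:**
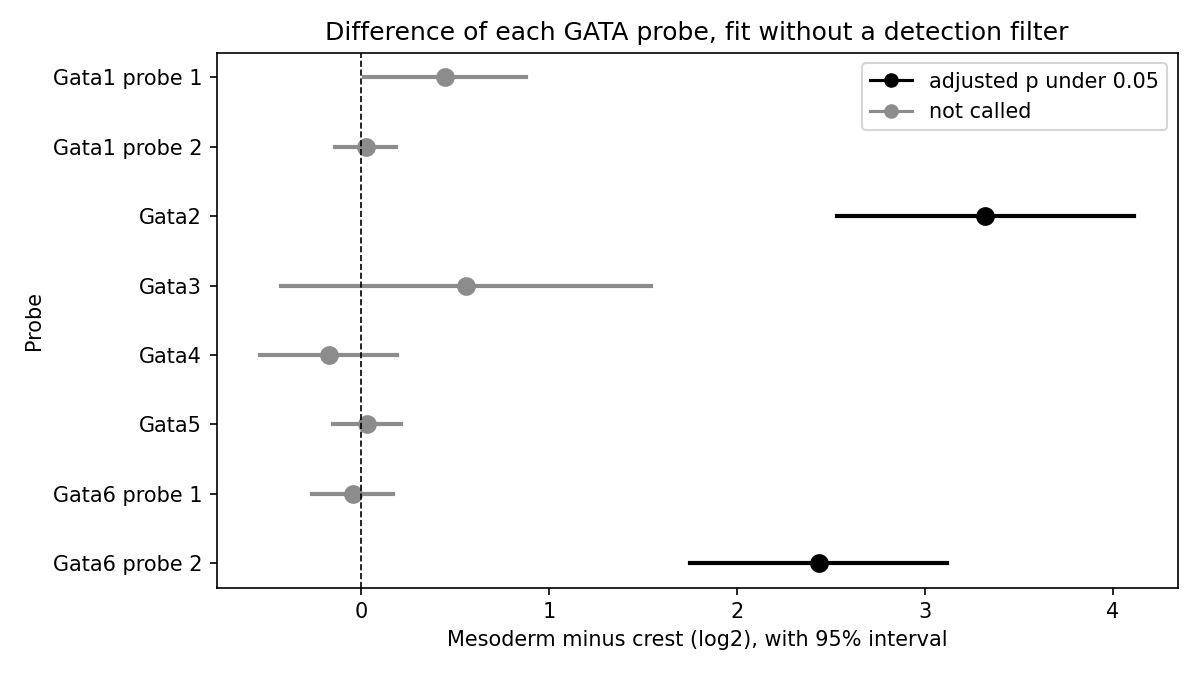
Difference between the sorts for each GATA probe (mesoderm minus crest, log2) with its 95% interval, in the limma fit of all 34885 named probes without a detection filter. The intervals of Gata2 (2.53 to 4.11) and of probe 2 of Gata6 (1.75 to 3.12) lie far from 0, and those of Gata3, Gata4, Gata5, probe 2 of Gata1 and probe 1 of Gata6 include 0.

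Both calls depended on how the background was modelled, in 1 setting. With the deposited detection p used in the background model as well as in the filter, Gata2 differed by 0.0038 (log2, adjusted p = 0.0798) and Gata6 by 0.00065 (adjusted p = 0.0934), and neither was called. The list counts given below also fell there: to 3 partners, 2 erythroid, 2 megakaryocyte, 8 endothelial and 2 heart genes higher in mesoderm, and to 1 head mesoderm gene higher, 2 neural tube genes lower and 2 macrophage genes higher. In that setting the model put the mean background at 439 to 838 signal units, against 97.0 to 124 with the p re-read from the signals, and the array medians were 99.8 to 131. With no background correction the differences were 2.33 for Gata2 and 1.07 for Gata6, and in the authors' deposited log2 values, which carry no background correction, they were 2.29 and 1.04. The size of the Gata6 difference therefore rests on the correction, while its direction did not change.

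Most tested partners of GATA factors in blood and endothelium were higher in mesoderm. Of 15 listed FOG proteins and members of the Tal1 complex, 14 were on the array and 10 were tested. In the fit 7 were called higher in mesoderm and 1 lower, and the median difference was 2.49 (log2; 2.42 with the 5 genes undetected in crest at their bound) against -0.07 for all genes tested. Those 5 are among the 7 and passed the filter through their mesoderm arrays, so the filter set their direction. Gfi1b, a repressor in red cells and megakaryocytes, differed by 4.54 ± 0.29 (log2, SE, adjusted p = 2.14e-05) and Lyl1, a relative of Tal1, by 4.41 ± 0.29 (adjusted p = 2.38e-05). Neither was detected in crest, which makes them at least 15.4-fold higher in mesoderm each. Lmo2, the bridging protein of the complex, was detected on all 6 arrays and differed by 4.85, and Tal1 differed by 4.35 and was at least 12.2-fold higher.

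FOG2, encoded by Zfpm2, is the cofactor of Gata4 in the heart. It differed by 1.69 ± 0.22 (log2, SE, adjusted p = 0.00102) and was at least 2.08-fold higher in mesoderm, through the 1 of its 3 probes that passed the filter. Zfpm1, which encodes FOG1, the cofactor of Gata1, was not matched in the probe table. The E protein gene Tcf3 was the member lower in mesoderm, at -1.36 ± 0.23 (adjusted p = 0.00384). Ldb1 (-0.41, adjusted p = 0.275) and Cbfb (-0.23, adjusted p = 0.624) were not called, and Runx1, Fli1, Erg and Spi1 did not pass the filter. Leaving out any 1 mesoderm array and repeating the filter gave 2 members higher, because genes seen in mesoderm alone then reach 2 arrays. With the probes kept as on all 6 arrays, the count was 7 each time.

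The megakaryocyte genes known as GATA1 targets were seen in mesoderm alone. Of 12 listed, 8 were tested and called higher in mesoderm, with a median difference of 5.58 (5.19 with genes undetected in crest at their bound). None of the 8 was detected in crest, so each passed the filter through its mesoderm arrays, and the direction of the count was set by the filter. Gp5, a platelet surface glycoprotein, was at least 40.1-fold higher and Treml1, a receptor stored in platelet granules, at least 50.3-fold higher. Pf4, a platelet chemokine, was at least 139-fold higher and Itga2b, the platelet integrin chain, at least 38.3-fold higher. The other kept Itga2b probe differed by 1.64 (log2), against 5.73, and the deposited p of both Itga2b lines was out of step with their signals. The calls of the list held with the probes kept as on all arrays, at 8 in every leave-one-out fit, and fell to 0 without any 1 mesoderm array when the filter was repeated.

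The erythroid targets were mixed. Of 20 listed, 13 were tested, with 5 called higher in mesoderm, 1 lower and 7 not called, and a median difference of 1.97. Nfe2, a factor of late red cells and megakaryocytes, was at least 18.4-fold higher in mesoderm. The embryonic globin gene Hbb-y had log2 levels of 10.18, 4.77 and 9.16 on crest replicates 1, 2 and 3, and it was not detected on crest replicate 2, nor were Hba-a1 and Hba-x. Hbb-bh1, another embryonic globin gene, was detected on all 6 arrays, and its difference of 4.15 ± 1.26 was not called (adjusted p = 0.0533). The Hbb-y difference was 4.16 ± 1.17 (adjusted p = 0.0404 by limma). Like those of Hba-a1 (3.80 ± 1.04, adjusted p = 0.0363) and Hba-x (3.39 ± 0.91, adjusted p = 0.0347), it rested on the spread between the crest arrays. Of 23 alternatives, Hbb-y lost its call in 11, Hba-a1 in 9 and Hba-x in 10, and without crest replicate 2 the Hbb-y difference was 2.59, against 5.21 without crest replicate 1. Globin genes are near copies of each other, so probes for them may share RNA. The list's count was 2 with the probes kept and without mesoderm replicate 1, mesoderm replicate 3 or crest replicate 3, and 0 to 6 with the filter repeated (0 without mesoderm replicate 1 or 3). Without a detection filter it was 3, and with array weights 9. Tfrc, the transferrin receptor, was the target lower in mesoderm, at -2.08 ± 0.42 (adjusted p = 0.0104).

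The endothelial and progenitor targets of GATA2 were largely higher in mesoderm. Of 14 tested of 16 listed, 11 were called higher and none lower, with a median difference of 3.72. Among the 14, 4 were undetected in crest and passed the filter through mesoderm, which set their direction. Esam, an adhesion molecule of endothelial junctions, differed by 7.45 (log2), and Emcn, Icam2 and Sox18, a surface mucin, an adhesion molecule and a transcription factor of endothelium, were at least 115-fold, 86.1-fold and 50.1-fold higher. Kdr, the main VEGF receptor (-0.12, adjusted p = 0.803), Kit, the stem cell factor receptor (-1.10, adjusted p = 0.0919), and Vcam1 (1.15, adjusted p = 0.0639) were not called. With the filter repeated the count was 7 without any 1 mesoderm array, and it was 11 in every leave-one-out fit with the probes kept.

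Markers of endothelium, megakaryocytes, macrophages, red cells, heart and endoderm summed higher in mesoderm, where Gata2 and Gata6 were also higher. Markers of neural tube, migratory crest and surface and otic epithelium summed lower there. The part of any of these cell types in the differences was not tested. The summed linear level of 9 endothelial markers was 15845 to 18922 in mesoderm and 291 to 305 in crest. That of the megakaryocyte markers was 7869 to 13681 in mesoderm and 131 to 135 in crest, and that of the macrophage markers was 968 to 1148 in mesoderm and 215 to 219 in crest. No megakaryocyte marker was detected in crest, and of the macrophage markers Aif1 alone was, on 1 crest array. The megakaryocyte and macrophage sums in crest therefore lie near background. Neural tube markers summed to 277 to 460 in mesoderm and 4140 to 7497 in crest. Migratory crest markers gave 442 to 639 and 5928 to 8467, and the epithelial markers 400 to 495 and 558 to 579. The epithelial sums lay close together, and none of the 5 tested genes of the epithelium list was called. Red cell markers summed to 14205 to 20973 in mesoderm and to 4487, 240.4 and 2588 on crest replicates 1, 2 and 3. Heart markers summed to 577 to 704 in mesoderm and 223 to 229 in crest, and 2 of the 8 on the array were detected on any array. Endoderm markers gave 808 to 909 and 156 to 165, with 3 of 5 detected on any array. Of those 3, Sox17, which endothelium also uses, was called higher in mesoderm. Hnf4a was not called (0.29, adjusted p = 0.388 by limma), and Ttr did not pass the filter. On crest replicates 1, 2 and 3 Gata2 stood at 6.30, 5.90 and 6.65 (log2), from signals of 186, 186 and 173, and was detected on each.

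Genes of the heart program split. The list held 26 partners and targets of Gata4, Gata5 and Gata6 in the heart, of which 13 were tested, with 8 called higher in mesoderm, 1 lower and 4 not called, and a median difference of 1.72. Tbx1, a factor of pharyngeal mesoderm, differed by 4.38 and was at least 12.3-fold higher, and Actc1, cardiac actin, was at least 5.23-fold higher. Acta2, smooth muscle actin, differed by 3.38 ± 0.44 (adjusted p = 0.00095), and its other kept probes by 3.44, 0.74 and 0.63. Bmp4, a secreted growth factor, differed by 2.99 ± 0.35 (adjusted p = 0.000555), but the deposited detection p of its 2 lines was out of step with their signals, and with the deposited p in the filter the other probe was read, with a difference of 0.10 (adjusted p = 0.735). Tbx3, a factor of the conduction system and of craniofacial tissue, was lower in mesoderm at -2.41 ± 0.34 (adjusted p = 0.00151). Of 8 heart markers on the array 6 were detected on no array: Nkx2-5, Tbx5, Myl7, Myh6, Myh7 and Nppa. The count of genes higher fell to 5 without mesoderm replicate 1 when the filter was repeated and was 7 to 9 with the probes kept.

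The endoderm genes of GATA4 and GATA6 moved both ways, with 3 of 7 tested called higher in mesoderm and 2 lower, of 14 listed. Sox17, an endoderm factor that endothelium also uses, was at least 18.3-fold higher in mesoderm, and Dab2, an endocytosis adaptor, differed by 1.47 ± 0.27 (adjusted p = 0.00594). The other kept Sox17 probe differed by 2.42 (log2), against 4.76. Shh, the floor plate and endoderm signal, was not detected in mesoderm and stood at least 7.37-fold higher in crest. Foxa1, a pioneer factor of endoderm and floor plate, was also undetected in mesoderm and stood at least 2.60-fold higher in crest. Foxa2 and Afp, which define endoderm and yolk sac, were detected on no array. The counts fell to 1 higher without mesoderm replicate 1 or 3 and to 0 lower without any 1 crest array when the filter was repeated. With the probes kept they were 2 to 3 higher and 2 lower. Under median scaling 1 gene was called higher.

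Genes that act beside Gata2 and Gata3 in neurons were called in both directions. Tal2, which works with Gata2 in midbrain GABA neurons, was lower in mesoderm at 6.35, 4.90 and 5.90 against 8.49, 9.15 and 8.98 in crest (log2). Its difference was -3.16 ± 0.38 (adjusted p = 0.000608), the opposite direction to that of its relative Tal1. Lhx5 was detected in crest alone and was at least 3.99-fold higher there. The midbrain list had 2 genes higher and 2 lower of 5 tested, of 16 listed, where the higher genes were Tal1 and Zfpm2. Both were detected in mesoderm alone, as Lhx5 was in crest alone, so the filter set the direction of these 3. Lower calls were 1 without crest replicate 1 or crest replicate 3, and higher calls 0 without any 1 mesoderm array, when the filter was repeated, and with the probes kept they were 2 to 3 and 2. In the sympathetic list 2 of 4 tested, of 10 listed, were lower in mesoderm: Insm1, a factor of neuroendocrine differentiation (-2.87 ± 0.33, adjusted p = 0.000514), and Phox2a, an autonomic neuron factor, at least 2.61-fold higher in crest. That count was 1 without any 1 crest array with the filter repeated, and 2 with the probes kept, and it was 4 without a detection filter and 0 with the deposited detection p in the background model.

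The lists of epithelium and of zinc finger relatives held no call. The ear and surface epithelium list, tissues in which Gata3 acts, had 0 calls among 5 tested genes of 13 listed, at a median difference of -0.17. In 8 of 23 alternatives, among them no background correction and leaving out mesoderm replicate 3, 1 of its genes was called lower. The relatives with a GATA-type zinc finger had 0 calls among 5 tested of 8 listed, at a median of -0.37. Among them Trps1, a repressor of GATA targets, differed by -1.37 (adjusted p = 0.166), Mta2 by -0.66 (adjusted p = 0.0578) and Mta3 by 0.69 (adjusted p = 0.0822), all by limma over the 9214 genes. Under some alternatives, the authors' values and array weights among them, 1 or 2 relatives passed the threshold in the lower direction. In 2 of 23 alternatives 1 relative passed it in the higher direction.

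Of the markers of the sorts themselves, 6 of 7 tested neural tube genes and 4 of 7 migratory crest genes were lower in mesoderm. Snai2, a crest factor that mesenchyme also uses, was called higher in mesoderm (0.91 ± 0.23, adjusted p = 0.0282). In the head mesoderm list 6 of 7 tested genes were higher in mesoderm. Of the macrophage markers 8 of 9 tested were higher in mesoderm, and Ptprc, a marker of white blood cells, was detected on no array. Of those 9 genes 8 were undetected in crest and passed the filter through mesoderm, so the filter set the direction of most of that count. With the filter repeated it came to 0, 1 and 0 calls without mesoderm replicates 1, 2 and 3, and 7 to 8 with the probes kept.

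**Figure D4:**
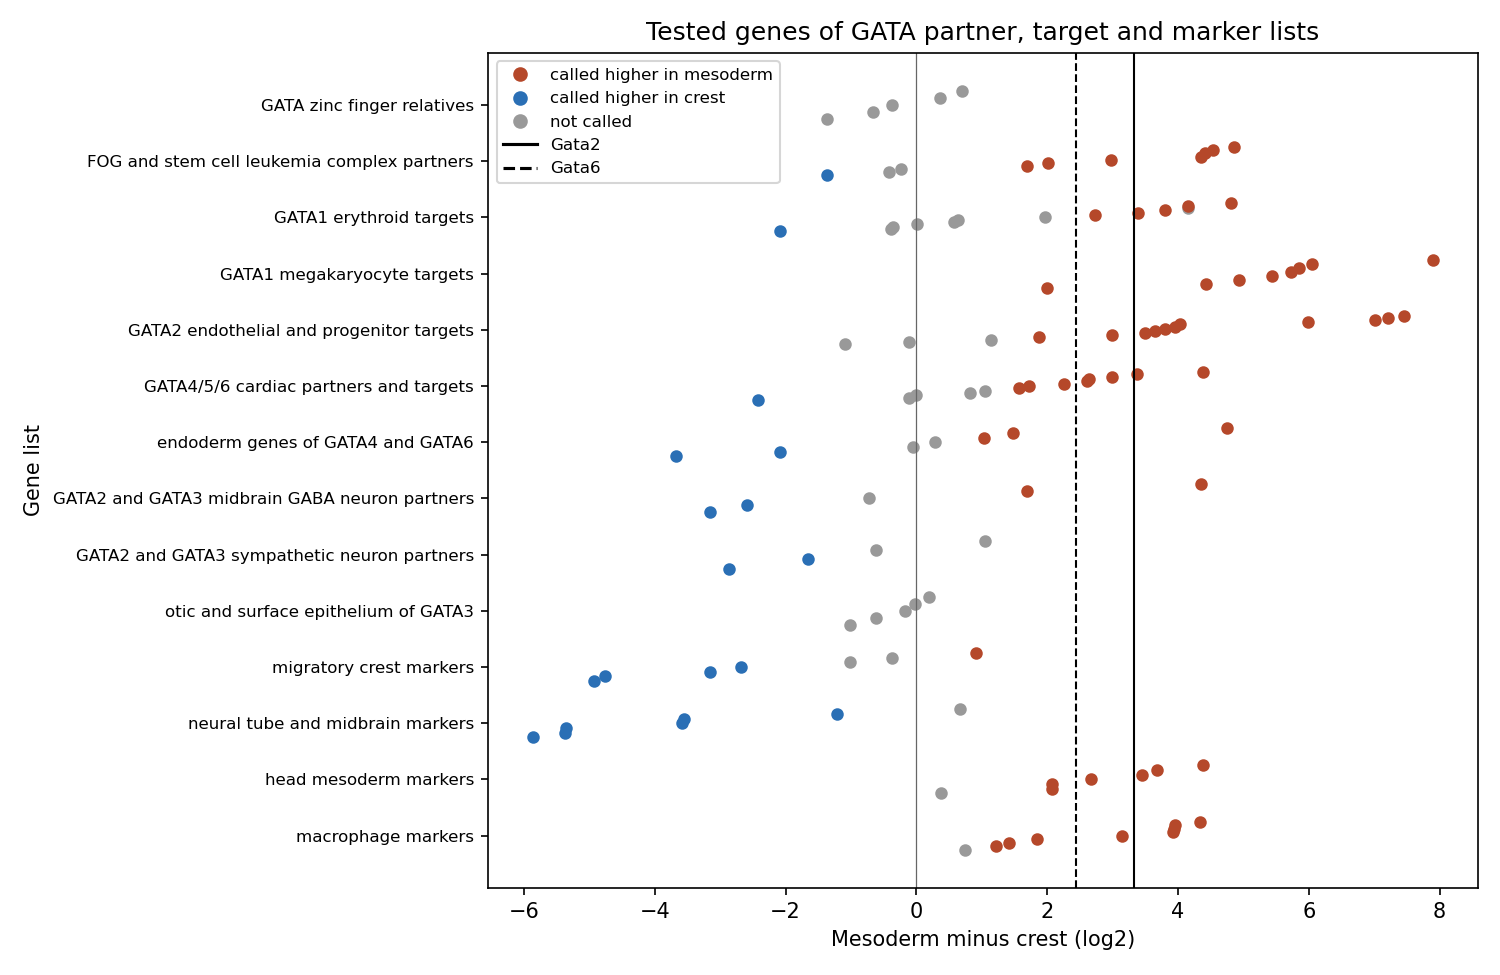
Difference of each tested gene in 14 lists (mesoderm minus crest, log2), where genes called higher in mesoderm, called higher in crest and not called have their own colours, and the vertical lines mark Gata2 (3.32) and Gata6 (2.44). The megakaryocyte and endothelial lists lie to the right of both lines for most of their genes, and the neural tube and migratory crest lists lie to the left of 0 for most of theirs.

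The genes whose pattern over the 6 arrays was most like each called member were found by Pearson correlation, which has few arrays behind it. For Gata2 they were Rras, a small GTPase (0.999), Mydgf, a secreted growth factor (0.998), and Rnf141, a RING finger protein (0.997). For Gata6 they were Cx3cr1, a chemokine receptor of macrophages (0.999), Pdgfrl (0.999) and Fgfr1op2 (0.998). A correlation above 0.95 was found for 434 genes with Gata2 and for 407 with Gata6, and these values mainly follow the difference between the sorts that all 6 arrays share. Fgfr1op2 was read from another probe when a mesoderm array was left out with the filter repeated, and its difference was then 0.50 to 0.74 against 2.83.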

How the data were processed

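RNA of 6 samples was measured on Illumina BeadChips. The deposited table gives, per the file headers, a linear signal intensity and a detection p-value for each probe and array, with no background subtraction. The deposited series matrix holds the authors' log2 values. Members were taken by symbol, but the choice of this family and of the gene lists was made with earlier results of these data known, so the lists are description and not independent support. The deposited p-value was out of step with its signal by more than 0.06 on 12273 lines (27.1%), so it was re-read from each array's signals by a running median of 101 probes. Signals were background-corrected with limma 3.58.1 (R 4.3.3; normal-exponential model, offset 16), quantile normalised and taken to log2. Because of the offset, a fold understates the change of low genes. Probes with a detection p under 0.05 on at least 3 arrays were kept, 1 per gene (the brightest), giving 9214 genes. A gene detected in 1 sort alone passed through that sort, so the filter set its direction in the list counts. limma's linear model with empirical Bayes variance compared mesoderm with crest, two-sided, with Benjamini-Hochberg adjustment and a threshold of 0.05. Up to 4 called genes per list were named, by size of difference, with other genes named for their role after their values were seen. The number of arrays, 3 per sort, limits the precision. The procedure was tested on simulated data. Per the labels' protocols, RNA was amplified before labelling. The sources used here do not give the extraction day or the summary software.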

Additional observations from a re-analysis of the deposited data

How the results depend on the processing

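Gata2 was called in 22 of 23 alternatives and Gata6 in 19 of 20 that gave it a value. The exception is the alternative planned with the deposited detection p in place of the re-read one. It called 231 genes higher and 172 lower in mesoderm and 0 GATA members or probes, and gave Gata2 0.0038 (adjusted p = 0.0798) and Gata6 0.00065 (adjusted p = 0.0934). Its modelled background, 439 to 838, lies above the median signal of every array. Tfap2a, read there from another probe, had 1.17e-05 (adjusted p = 0.9). After that outcome was seen, a version with the deposited p in the filter alone was added: Gata2 and Gata6 kept their calls (adjusted p = 0.00127 and 0.00273), and Tfap2a had 0.033 (adjusted p = 0.916). The cause of the mismatch in the file was not tested.

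Median scaling called 595 genes higher in mesoderm, and array weights called 1464 lower. The replicate block gave 3.32 for Gata2 (adjusted p = 0.000255) and 2.44 for Gata6 (adjusted p = 0.00132), and changed neither call. The deviations of same-numbered arrays from the mean of their sort correlated at 0.116, 0.32 and 0.0174. These were not set against arrays of unlike number, so whether the numbers pair the samples was not tested. Leaving out 1 array at a time, filter repeated, gave 433 to 758 genes higher and 237 to 718 lower in mesoderm, Gata2 3.07 to 3.54, Gata6 2.34 to 2.45, and 1 to 2 GATA members or probes called: Gata6 left the test without any 1 mesoderm array. With the probes kept as on all 6 arrays, a choice made after the data were seen, the ranges were 635 to 942 genes higher and 327 to 795 lower (434 without mesoderm replicate 1, 496 without crest replicate 2), 2.19 to 2.75 for Gata6, and 2 members. Signal near background limits what can be said of Gata1, Gata3, Gata4 and Gata5.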
